A study of Homo sapiens with 2 samples.

Results

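The cells described here are OVCAR5 tumour cells with high counts of SOX9-AS1, MBNL2 and NFATC2. They were chosen by the summed counts of these 3 genes per 10000 gene UMIs (unique molecular identifiers, 1 per captured transcript). Cells were kept when 1000 genes or more were detected and mitochondrial (MT-) genes took no more than 20% of UMIs, and the highest 5% of kept cells were taken. This gave 177 high cells of 3538 kept cells, from 5269 barcodes deposited. The other 3361 kept cells are called the rest.

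OVCAR5 is a human ovarian carcinoma line. The line carried a sensor for interferon gamma (IFNy in the labels, IFN-gamma here), and the sorted cells were CFP+, which the labels equate with bystander tumour cells. They were taken from tumours of NSG-b2m-/- mice, immunodeficient animals without beta-2-microglobulin, and digested to single cells. They were then kept for 6 h unstimulated, with 10 ng/ml tumour necrosis factor alpha (TNFa, TNF here), or with 100 ng/ml IFNy plus 10 ng/ml TNFa. The labels list 15 such entries, 5 per condition, in 1 pool of 5 tumours, sequenced as 1 gene expression library with hashtag counts. No source used here ties a hashtag to a condition, so no value is compared between conditions. Neither the clonality of the line nor the promoter of the sensor is stated in the labels.

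Cells were placed by their pair of hashtags, which gave 15 hashed samples of 49 to 630 kept cells. The pairs are named by their tags, for example HTO3+HTO8. The comparison of high cells with the rest used the 12 hashed samples with at least 5 high cells, holding 151 high cells and 2827 other cells. All hashed samples share 1 cell line, 1 library and 5 tumours, so p-values measure only the spread between hashed samples. The kept cells held 1.64e+06 UMIs in high cells and 4.25e+07 in the rest, and no barcode appeared more than once in the library.

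SOX9-AS1 is a long noncoding RNA transcribed from the strand opposite to SOX9, an epithelial transcription factor gene. MBNL2 encodes a muscleblind protein, which binds RNA and steers alternative splicing. NFATC2 encodes a calcium-regulated transcription factor that enters the nucleus once calcineurin removes its phosphates, best known from T cells. LGALS1, the other gene given as a marker of the group, encodes galectin-1, a secreted sugar-binding protein. None of the 4 genes defines a known epithelial cell type, and the group is named here by its leading genes only.

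The counts that chose the cells were low. In GRCh38, SOX9-AS1 lies at chr17:72034107-72237203 on the minus strand and spans SOX9 at chr17:72121020-72126420 on the plus strand. Whether counting used strand is not stated, so reads of the pair cannot be told apart with certainty. MBNL2 lies at chr13:97221434-97394120 on the plus strand and NFATC2 at chr20:51386957-51562831 on the minus strand. MBNL2 gave the most counts, 263 in 132 high cells, beside 508 in the rest. NFATC2 gave 150 counts in 98 high cells and 415 in the rest. SOX9-AS1 gave 82 counts in 54 high cells and 143 in the rest. As levels per 10000 UMIs, these were 1.60 against 0.119 for MBNL2, 0.915 against 0.0975 for NFATC2 and 0.50 against 0.0336 for SOX9-AS1. These levels follow from the choice and are a description.

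The lowest scores inside the group were 1.95478, 1.95695 and 1.97258 per 10000 UMIs, and the highest outside were 1.94326, 1.94005 and 1.91562, so no gap separates the group from the rest. The median score in high cells was 2.76 and the highest 18.9. Of all kept cells, 2541 (71.8%) held 0 counts of the 3 genes. Among high cells, 33 were chosen on 1 count, 60 on 2, 37 on 3 and 47 on 4 or more, with 10 at most. A single count is enough only in a shallow cell: the 33 cells with 1 count had a median of 3814 UMIs. In the other direction, 43 cells of the rest held at least 3 counts, at a median of 22875 UMIs. One of the 3 genes was detected in 83 high cells, a pair of them in 81 and all 3 in 13.

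Detection of the 3 genes overlapped more than independence would give. MBNL2 and NFATC2 were found together in 117 kept cells, where 72.4 would be expected from their separate frequencies. SOX9-AS1 was found with MBNL2 in 60 cells (29.1 if independent) and with NFATC2 in 45 (24.1 if independent). These counts are a description, since deeper cells detect more of any gene.

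Each of the 3 genes was also read in cells chosen by the other pair. The 3 genes had been grouped from these same cells, so these levels are a description with no test. MBNL2 levels in cells chosen by SOX9-AS1 and NFATC2 ran from 0.186 to 1.45 per 10000 UMIs over 11 hashed samples (median 0.486), against 0.0788 to 0.236 (median 0.151) in their rest. MBNL2 was higher in 11 of 11 hashed samples. NFATC2 in cells chosen by SOX9-AS1 and MBNL2 had a median of 0.305 against 0.107. It was higher in 9 of 10 hashed samples. SOX9-AS1 in cells chosen by MBNL2 and NFATC2 gave 23 counts at 0.172 per 10000 UMIs, against 147 counts at 0.0431. It was higher in 6 of 11 hashed samples.

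High cells occurred in every hashed sample. Their share ran from 2.04% in HTO3+HTO5 (1 of 49 cells) to 8.10% in HTO3+HTO8 (51 of 630 cells, exact binomial 95% interval 6.09% to 10.5%). Cells with no clear pair of hashtags, which can include droplets with cells of several samples, made up 11.3% of high cells and 11.1% of the rest. HTO3+HTO8 gave 51 of the 151 high cells compared, so calls lost without it are named beside the genes.

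The high cells were shallower and richer in mitochondrial RNA than the rest. Their median depth was 8407 UMIs and 2466 genes per cell, against 11709 UMIs and 3268 genes, and both were lower in 12 of 12 hashed samples. Depth is the denominator of the score, so this difference is a description. UMIs of MT- and ribosomal protein genes are part of that denominator, and the mitochondrial share limited which cells were kept. Neither share is therefore independent of the choice. The mitochondrial share had a mean over hashed samples of 15.2% ± 1.40 (SD, n = 12) in high cells and 13.2% ± 0.719 in the rest. The difference of 1.99 percentage points ± 1.23 (SD) was positive in 12 of 12 hashed samples (exact sign-flip permutation test, two-sided, p = 0.000488, adjusted p = 0.00146). It was 2.21 points among cells of 5000 to 12000 UMIs (adjusted p = 0.00879, exact permutation test). High cells in that range were still shallower, with a mean of sample medians of 7936 against 9378 UMIs, lower in 10 of 12 hashed samples. That comparison is therefore not at equal depth. With the limit on mitochondrial share set at 15%, members chosen anew differed by 0.0269 points (adjusted p = 0.941, exact permutation test).

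The share of ribosomal protein transcripts was also higher, by 1.75 percentage points ± 1.48 (SD) in 11 of 12 hashed samples (exact permutation test, p = 0.00195, adjusted p = 0.00293). It was 1.57 points among cells of 5000 to 12000 UMIs, where high cells were still shallower (adjusted p = 0.0190, exact permutation test). With the mitochondrial limit at 15% it was 0.533 points, higher in 7 of 12 hashed samples (adjusted p = 0.509, exact permutation test). Hashtag counts, which report surface antibody label and not RNA, differed by -183 ± 471 (SD) counts per cell (exact permutation test, p = 0.209). Hashtag counts were lower in high cells in 9 of 12 hashed samples.

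**Figure D1:**
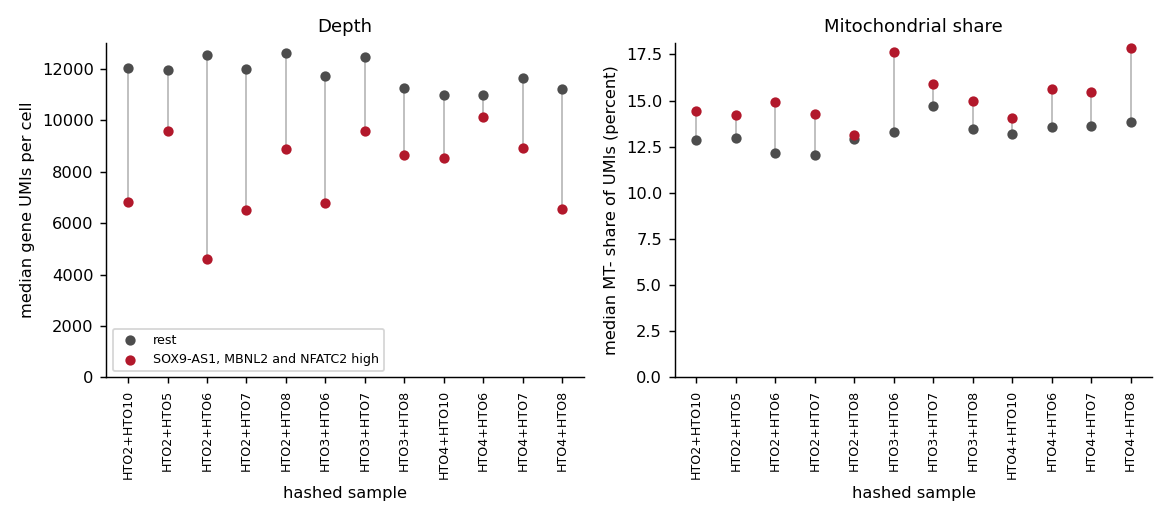
Median gene UMIs per cell (left) and median share of UMIs from MT- genes in percent (right) for high cells (red) and the rest (grey) in each of 12 hashed samples. Depth is lower and the mitochondrial share higher in high cells in 12 of 12 hashed samples, with the smallest mitochondrial gap in HTO2+HTO8.

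Across all genes, 6084 passed the filter on low counts once the 3 choosing genes were left out. Of these, 188 differed between high cells and the rest at an adjusted p under 0.05 (3.09%, edgeR), 55 higher (0.904%) and 133 lower (2.19%) in high cells. The median log2 fold change over all tested genes was -0.06. The gene body of the lower genes was shorter, with a median span of 13121 bases against 29744 for all tested genes and 24252 for the higher genes. Without HTO3+HTO8 the counts were 23 higher and 47 lower. In a further fit, cells of at least 5000 UMIs were chosen anew by counts of the choosing genes thinned to 5000 UMIs. Ties in the thinned score were broken by a seeded random draw, and the counts tested were not thinned. In this fit, called the choice at 5000 UMIs, 7 were higher and 20 lower (0.47% of tested genes). With the mitochondrial limit at 15%, 12 were higher and 19 lower (0.471%). The fit at the 15% limit held 86 high cells in 8 hashed samples and that at 5000 UMIs 132 in 10, against 151 in 12. The part of fit size in the lost calls was not tested. DESeq2 called 3.3% of genes, 1.43% higher and 1.87% lower, and without the low-count filter edgeR called 3.4%, 0.666% higher and 2.74% lower.

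Of the 55 higher genes, 9 were also called higher in all 3 choices by a pair of genes: ATF3, CCN2, CHMP1B, IRS2, LUCAT1, MAFF, RGCC, SGMS2 and YPEL5. The CHMP1B call was lost without any 1 of 6 hashed samples, HTO3+HTO8 among them (adjusted p = 0.0821, edgeR). Of the 133 lower genes, 27 were also called lower in all 3 choices, among them PLAUR, KRT7, NOP56, DKC1, NCL and HSPA8. Cells chosen by MBNL2 and NFATC2 gave 1.74% of tested genes called (0.612% higher, 1.13% lower). Those chosen by SOX9-AS1 and NFATC2 gave 2.27% (1.24% higher, 1.02% lower), and those chosen by SOX9-AS1 and MBNL2 5.09% (1.44% higher, 3.65% lower). The choices share many cells and are not independent of each other. CCN2, LUCAT1, RGCC and YPEL5 were the 4 genes called higher both in the main choice and at 5000 UMIs.

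CCN2 encodes a secreted matricellular protein and is a classical target of YAP and TAZ, the coactivators that the Hippo pathway restrains. CCN2 levels in high cells ran from 0.405 to 1.40 per 10000 UMIs over 12 hashed samples (median 0.822), and in the rest from 0.0800 to 0.561 (median 0.221). The groups overlapped slightly, with high cells above the rest in 11 of 12 hashed samples and below it in HTO2+HTO10. The log2 fold change was 1.85 (SE 0.25, adjusted p = 8.82e-06, edgeR). Over all 177 high cells, including those outside the fit, 133 counts came from 50 cells, the highest of which held 19. CCN2 was called in all 19 alternative settings and in all 12 fits that left out 1 hashed sample. Cells of the main choice with at least 5000 UMIs (137 high cells and 3132 of the rest) were also thinned to 5000 UMIs each. Of these, 20.4% of high cells and 7.60% of the rest had a CCN2 count.

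The promoter of CCN2 is printed because YAP and TAZ act through TEAD factors, whose best-known motif holds the letters GGAATG. Promoters of LUCAT1 and MBNL2 are printed for the AP-1 motif TGANTCA, since AP-1 family genes are part of the lists described here. The sequences are the 250 bases before the RefSeq start (GRCh38.p14), 5′ to 3′ on the strand of the gene, with the motif in capitals.
CCN2 chr6:131951373-131951622, minus strand: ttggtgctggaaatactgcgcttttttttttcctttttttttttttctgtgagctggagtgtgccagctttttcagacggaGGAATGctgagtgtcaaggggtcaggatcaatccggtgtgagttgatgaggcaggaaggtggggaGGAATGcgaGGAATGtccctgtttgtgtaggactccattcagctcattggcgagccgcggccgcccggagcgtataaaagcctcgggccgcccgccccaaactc
LUCAT1 chr5:91314403-91314652, minus strand: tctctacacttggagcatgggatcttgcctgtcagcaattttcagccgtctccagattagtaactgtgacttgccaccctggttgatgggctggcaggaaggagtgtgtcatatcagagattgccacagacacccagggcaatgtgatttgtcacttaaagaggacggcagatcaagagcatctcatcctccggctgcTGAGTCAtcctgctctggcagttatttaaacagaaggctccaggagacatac
MBNL2 chr13:97141584-97141833, plus strand: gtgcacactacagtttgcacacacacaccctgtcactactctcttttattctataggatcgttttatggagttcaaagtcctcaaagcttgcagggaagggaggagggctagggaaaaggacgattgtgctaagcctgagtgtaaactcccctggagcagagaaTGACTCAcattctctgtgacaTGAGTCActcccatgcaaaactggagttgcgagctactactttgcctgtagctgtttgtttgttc

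The CCN2 window held GGAATG 3 times on the strand of the gene, starting 169, 104 and 95 bases before the start. GGAATG on either strand was found in 11.9% of the 35116 promoter windows of this length in the table, and 29 windows held it 3 times or more. Among tested genes with a listed promoter it was found for 12.6%, against 14.6% of the higher and 11.5% of the lower genes. The MBNL2 window held TGANTCA 2 times and the LUCAT1 window 1 time, and the other RefSeq start of MBNL2 held none. The printed MBNL2 window lies upstream of the MBNL2 interval given above, and the window with no match, chr13:97222083-97222332, lies within it. TGANTCA, which reads the same on both strands, was found in 6.57% of all windows. It was found for 5.75% of tested genes, 10.4% of higher genes (5 of 48) and 9.62% of lower genes (10 of 104). The motif matches are letters in a window and were not tested against binding.

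From the WNT and Hippo list, 9 of 18 genes were tested, of which 3 rose and 0 fell, where 0.904% of all tested genes rose. The list had a median log2 fold change of 0.39 beside -0.06 for all tested genes. Besides CCN2, the genes that rose were LATS2, a kinase of the Hippo pathway, and WWTR1, which encodes TAZ. LATS2 had a log2 fold change of 1.45 (SE 0.31, adjusted p = 0.00543, edgeR) and was higher in 10 of 12 hashed samples. It had 46 counts over all 177 high cells. WWTR1 ran from 0.660 to 2.66 per 10000 UMIs in high cells (median 1.92) and from 0.442 to 1.77 in the rest (median 1.29). It was higher in 11 of 12 hashed samples, with a log2 fold change of 0.60 (SE 0.15, adjusted p = 0.0208, edgeR). The WWTR1 call was lost without HTO3+HTO8 (adjusted p = 0.0801, edgeR) and without HTO2+HTO7 (adjusted p = 0.0663, edgeR). LATS2 did not pass the low-count filter without HTO3+HTO8, at the mitochondrial limit of 15% or at 5000 UMIs. WWTR1 was called in 7 of 19 alternatives. At the limit of 15% WWTR1 was at 0.25 (adjusted p = 0.765, edgeR), and at 5000 UMIs at 0.48 (adjusted p = 0.235, edgeR).

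PER2, a repressor of the circadian clock, was higher in 12 of 12 hashed samples. Its levels ran from 0.158 to 1.76 per 10000 UMIs in high cells (median 0.315) and from 0.0555 to 0.161 in the rest (median 0.110). The ranges met only at the lowest high-cell value. The log2 fold change was 1.71 (SE 0.29, adjusted p = 0.00047, edgeR). Over all 177 high cells, including those outside the fit, PER2 had 60 counts, in 43 cells. With the mitochondrial limit at 15%, PER2 had a log2 fold change of 1.15 (adjusted p = 0.252, edgeR), and without HTO3+HTO8 it did not pass the low-count filter.

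LUCAT1, a stress-induced long noncoding RNA, RGCC, a regulator of the cell cycle, and YPEL5, a member of the yippee-like family, also rose. LUCAT1 had medians of 2.11 in high cells and 0.982 per 10000 UMIs in the rest, and was higher in 10 of 12 hashed samples. Its log2 fold change was 1.05 (SE 0.18, adjusted p = 0.00047, edgeR). RGCC had medians of 0.857 and 0.438, with a log2 fold change of 1.31 (SE 0.23, adjusted p = 0.000627, edgeR). YPEL5 had medians of 1.31 and 0.743, with a log2 fold change of 0.85 (SE 0.18, adjusted p = 0.00378, edgeR). All 3 were called in 18 of 19 alternative settings, the exception being the mitochondrial limit of 15%. LUCAT1 and YPEL5 were chosen for description after their values were seen.

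**Figure D2:**
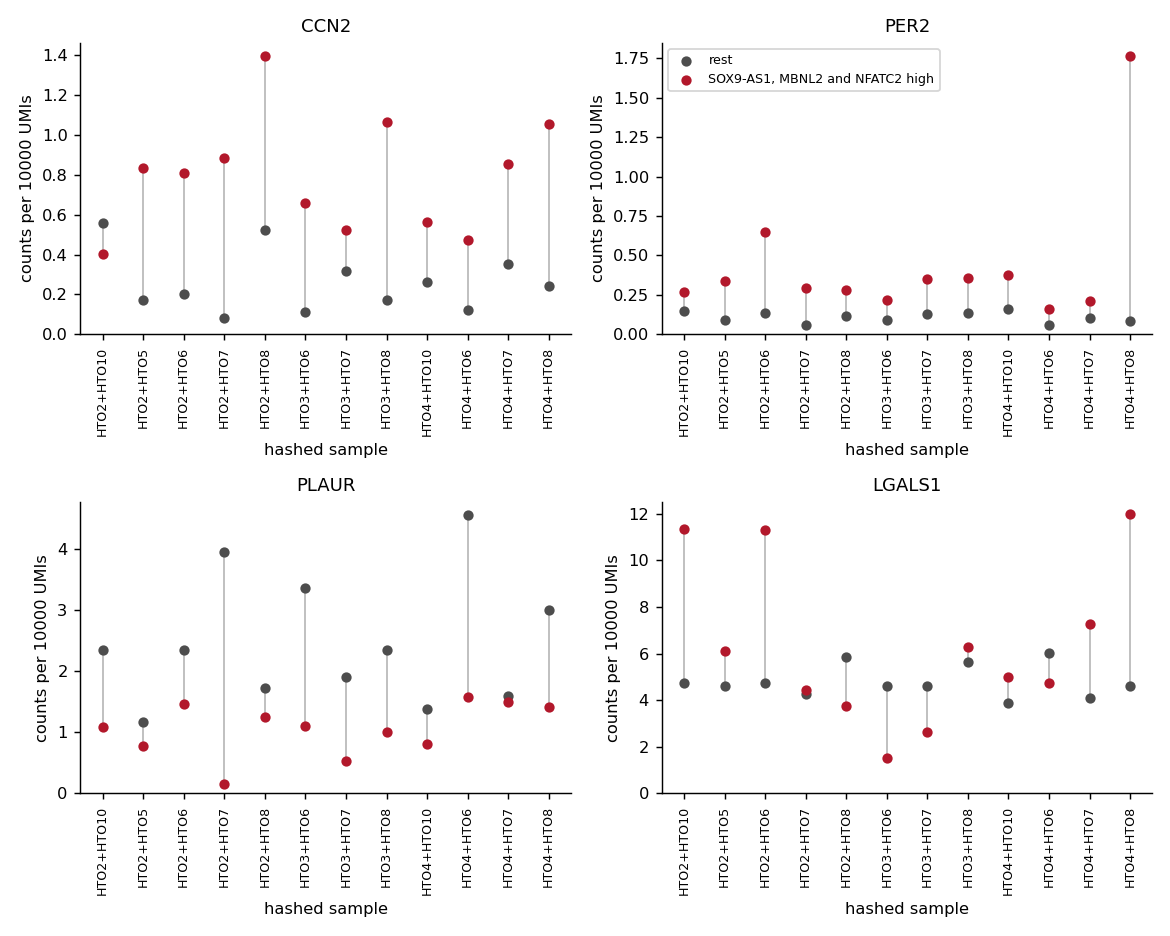
Counts per 10000 UMIs of CCN2, PER2, PLAUR and LGALS1 in high cells (red) and the rest (grey) in each of 12 hashed samples. CCN2 is higher in 11 of 12 and PER2 in 12 of 12, PLAUR is lower in 12 of 12, and LGALS1 is higher in 8 of 12.

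Transcripts of the unfolded protein and amino acid stress response formed the next group, in which 4 of 11 tested genes rose and 0 fell (median log2 fold change 0.37), where 0.904% of all tested genes rose. ATF3, a stress-induced transcription factor, had a log2 fold change of 1.68 (SE 0.34, adjusted p = 0.00295, edgeR) and was higher in 8 of 12 hashed samples. DDIT3, which encodes the death-linked factor CHOP, rose by a log2 fold change of 0.99 (SE 0.24, adjusted p = 0.0126, edgeR). PPP1R15A, which restores translation by guiding a phosphatase to eIF2alpha, rose by 0.87 on the log2 scale (SE 0.18, adjusted p = 0.00314, edgeR). DNAJB9, a chaperone of the endoplasmic reticulum, rose by 1.06 on the log2 scale (SE 0.26, adjusted p = 0.0159, edgeR).

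These stress transcripts sat in a minority of high cells. ATF3 was counted in 33 high cells, DDIT3 in 46 and DNAJB9 in 37, and 1 cell held 47 of the 269 PPP1R15A counts. The calls of DDIT3 and DNAJB9 were lost without HTO3+HTO8 (adjusted p = 0.144 and 0.122, edgeR) and without HTO2+HTO5 (adjusted p = 0.0679 and 0.0905, edgeR). The DNAJB9 call was also lost without HTO4+HTO6 (adjusted p = 0.0620, edgeR). At 5000 UMIs none of the 4 passed, with log2 fold changes from 0.48 for DNAJB9 to 1.08 for ATF3.

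The heat shock genes HSPA1A and HSPA1B, inducible HSP70 chaperones with near-identical copies whose reads can be divided arbitrarily, had high fold changes from few cells. HSPA1A had a log2 fold change of 1.70 (SE 0.31, adjusted p = 0.000875, edgeR), yet was higher in only 6 of 12 hashed samples. Its levels ran from 0 to 7.70 per 10000 UMIs in high cells (median 0.850) and from 0.295 to 1.44 in the rest (median 0.707). Of its 403 counts, 334 lay in the 83 high cells with 1 choosing gene detected, and 3 cells held 153. In cells of the main choice thinned to 5000 UMIs, 17.5% of high cells and 17.1% of the rest had an HSPA1A count. HMOX1, the heme-degrading enzyme of the oxidative stress response, behaved alike in this respect: 3 cells held 168 of its 304 counts. Its log2 fold change was 1.51 (SE 0.30, adjusted p = 0.00242, edgeR), with 6 of 12 hashed samples higher. The immediate early and heat shock list had a median log2 fold change of 0.19. Of its 11 tested genes, 2 rose and 2 fell, where 0.904% and 2.19% of all tested genes did. Those that fell were HSPA8, the constitutive HSP70 chaperone, at -0.67 (SE 0.12, adjusted p = 0.000735, edgeR) and IER2 at -0.75 (SE 0.16, adjusted p = 0.00543, edgeR), each lower in 12 of 12 hashed samples. At 5000 UMIs IER2 was at -0.24 (adjusted p = 0.549, edgeR).

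Other genes with large rises were MAFF, a small MAF transcription factor, IRS2, an adaptor of the insulin receptor, and INSIG1, a brake on sterol synthesis. MAFF rose by 1.32 on the log2 scale (SE 0.26, adjusted p = 0.00173, edgeR) and was higher in 10 of 12 hashed samples. IRS2 had a log2 fold change of 1.37 (SE 0.30, adjusted p = 0.00615, edgeR), higher in 9 of 12. INSIG1 had a log2 fold change of 1.36 (SE 0.35, adjusted p = 0.0211, edgeR), higher in 11 of 12. MAFF had a log2 fold change of 0.23 among cells of 5000 to 12000 UMIs (adjusted p = 0.797, edgeR). INSIG1 was lost without HTO3+HTO8 (adjusted p = 0.0848, edgeR) or HTO4+HTO10 (adjusted p = 0.125, edgeR). The noncoding RNA LINC00641 and the genes CREBRF, FRMD4B and IGFBP5 completed the named rises, with log2 fold changes from 1.15 to 1.35. Without HTO3+HTO8, CREBRF, FRMD4B and IGFBP5 did not pass the low-count filter. IGFBP5 had a log2 fold change of -0.31 in the cells with at least 3 counts of the choosing genes (adjusted p = 0.929, edgeR).

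**Figure D3:**
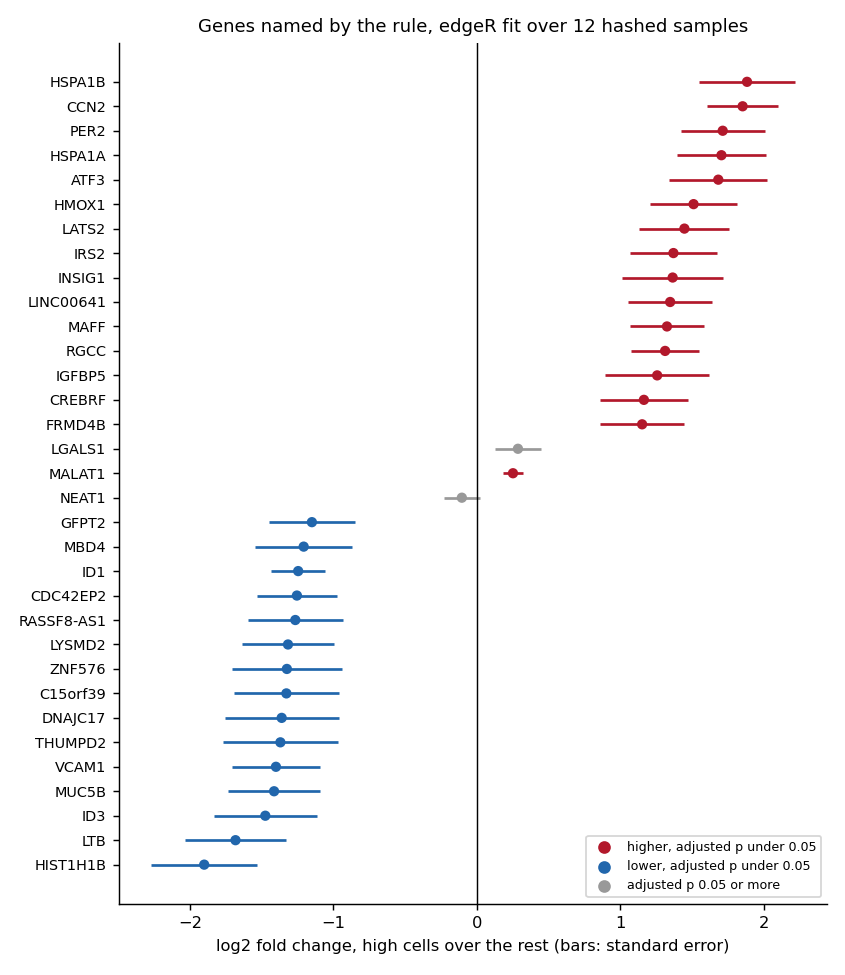
Log2 fold change of high cells over the rest with its standard error for the genes named by the rule, from the edgeR fit over 12 hashed samples. Red points were called higher, blue points lower, and grey points had an adjusted p of 0.05 or more. HSPA1B and CCN2 stand at the top and HIST1H1B at the bottom.

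Among the genes that fell, PLAUR, the urokinase receptor and a target of TNF signalling, held in every setting. PLAUR ran from 0.148 to 1.58 per 10000 UMIs in high cells (median 1.09) and from 1.17 to 4.55 in the rest (median 2.34). It was lower in 12 of 12 hashed samples, with the widest gap in HTO2+HTO7. The log2 fold change was -1.15 (SE 0.18, adjusted p = 0.000161, edgeR), and the call was kept in all 19 alternatives and all 12 fits with 1 hashed sample left out. SERPINB1, an inhibitor of neutrophil proteases, was chosen for description after its values were seen. It ran from 0.979 to 4.58 in high cells (median 2.94) and from 2.01 to 16.0 in the rest (median 6.55), lower in 12 of 12, with a log2 fold change of -1.07 (SE 0.14, adjusted p = 8.82e-06, edgeR). At 5000 UMIs SERPINB1 was at -0.39 (adjusted p = 0.263, edgeR).

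ID1 and ID3, inhibitors of basic helix-loop-helix factors and targets of BMP signalling, were both lower. ID1 had medians of 1.04 in high cells and 2.86 per 10000 UMIs in the rest, was lower in 11 of 12 hashed samples and had a log2 fold change of -1.25 (SE 0.19, adjusted p = 5.52e-05, edgeR). ID3 was lower in 12 of 12, at -1.47 (SE 0.36, adjusted p = 0.0152, edgeR). Over all 177 high cells ID3 had 31 counts, in 13 cells. The ID3 call was lost without HTO3+HTO8 (adjusted p = 0.0657, edgeR). At 5000 UMIs ID1 was at -0.50 (adjusted p = 0.184, edgeR) and ID3 at -0.15 (adjusted p = 0.897, edgeR), and at the mitochondrial limit of 15% ID1 was at -0.66 (adjusted p = 0.118, edgeR) and ID3 at -1.35 (adjusted p = 0.273, edgeR). The gel-forming mucin genes MUC5B and MUC5AC were lower at -1.41 (SE 0.32, adjusted p = 0.00696, edgeR) and -0.91 (SE 0.18, adjusted p = 0.00195, edgeR). MUC5AC was chosen for description after its values were seen. MUC5B was called in 9 of 18 alternatives that tested it, and was at -0.38 (adjusted p = 0.861, edgeR) at the mitochondrial limit of 15%. At 5000 UMIs MUC5B was at -0.78 (adjusted p = 0.257, edgeR) and MUC5AC at -0.59 (adjusted p = 0.150, edgeR).

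Of the 27 genes lower in the main choice and all 3 choices by a pair of genes, DKC1, NOP56, NCL, PES1 and SRM are described singly, after their values were seen. DKC1, the pseudouridine synthase of box H/ACA particles, was lower in 12 of 12 hashed samples (log2 fold change -0.89, SE 0.18, adjusted p = 0.00257, edgeR) and was called in all 19 alternatives. NOP56, a core protein of box C/D particles, was lower in 11 of 12 (-0.86, SE 0.15, adjusted p = 0.000627, edgeR). NCL, which encodes nucleolin, ran from 6.35 to 21.0 per 10000 UMIs in high cells (median 14.2) and from 19.0 to 25.2 in the rest (median 22.2). It was lower in 12 of 12, with a log2 fold change of -0.56 (SE 0.11, adjusted p = 0.00116, edgeR). PES1, a ribosome assembly factor, and SRM, which makes spermidine, had log2 fold changes of -0.87 and -0.90. At 5000 UMIs NCL, PES1 and SRM did not pass (adjusted p = 0.0849, 0.138 and 0.0984, edgeR), and at the mitochondrial limit of 15% NCL and PES1 did not (adjusted p = 0.249 and 0.232, edgeR). Of 74 tested mitochondrial ribosomal protein genes, 0 rose and 10 fell (median -0.27), where 2.19% of all tested genes fell. Of 85 tested cytosolic ribosomal protein genes, 0 rose and 1 fell (median 0.12). Of 13 mitochondrially encoded genes, 0 passed the test and 12 had positive log2 fold changes. These families were also picked after values were seen.

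Few genes of the cell cycle lists could be tested. Of the S phase list, 9 of 20 genes were tested and 0 passed (median -0.39), where 3.09% of all tested genes passed. Of the G2 and mitosis list, 9 of 20 were tested and 0 passed (median -0.31), MKI67 coming nearest at -1.08 (SE 0.36, adjusted p = 0.0854, edgeR). MKI67 was called in 4 of 18 alternatives that tested it, among them cells chosen at 5000 UMIs (log2 fold change -2.34, adjusted p = 0.00108, edgeR). The summed level of the G2 and mitosis list had a median of 0.879 per 10000 UMIs in high cells and 4.31 in the rest. Its ratio had a median of 0.265, with counting intervals below 1 in 9 hashed samples and above 1 in 3. HIST1H1B, a linker histone gene made in S phase, had the lowest log2 fold change, -1.90 (SE 0.37, adjusted p = 0.00173, edgeR). Over all 177 high cells HIST1H1B had 28 counts, in 5 cells. HIST1H4C was also lower, at -1.04 (SE 0.25, adjusted p = 0.0121, edgeR), and was chosen after its values were seen. The HIST1H4C call was lost without HTO3+HTO8 (adjusted p = 0.0939, edgeR).

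MALAT1, a nuclear noncoding RNA, ran from 167 to 354 per 10000 UMIs in high cells (median 281) and from 190 to 279 in the rest (median 231). It was higher in 11 of 12 hashed samples, with a log2 fold change of 0.25 (SE 0.07, adjusted p = 0.0299, edgeR). That call was lost in 12 of the 19 alternatives and in 9 of 12 fits with 1 hashed sample left out, that without HTO3+HTO8 among them. Log2 fold changes in these 12 fits ran from 0.18 to 0.31. With the mitochondrial limit at 15% it was 0.0040 (adjusted p = 0.997, edgeR). Among cells of 5000 to 12000 UMIs it was 0.42 (adjusted p = 0.00123, edgeR). NEAT1, the RNA of paraspeckles, ran from 9.87 to 48.3 in high cells (median 28.1) and from 20.8 to 41.6 in the rest (median 25.8). It had a log2 fold change of -0.10 (SE 0.13, adjusted p = 0.724, edgeR) and was higher in 7 of 12. The whole nuclear RNA list had a median log2 fold change of -0.10. Of its 12 genes, 9 were tested, 1 rose and 0 fell, where 0.904% of all tested genes rose. Among cells of 5000 to 12000 UMIs NEAT1 was at 0.34 (adjusted p = 0.102, edgeR). In the 13 high cells with all 3 choosing genes, MALAT1 stood at 374 and NEAT1 at 42.0 per 10000 UMIs, against 236 and 27.5 in cells with none. Cells of the rest with at least 1 choosing gene stood at 226 and 29.3. High cells with 1 of them stood at 282 and 26.5, and those with a pair at 289 and 32.1. The 13 cells had a median mitochondrial share of 16.6%, against 12.9% in cells with none. These levels pool cells over hashed samples. The difference between the 2 RNAs was not tested.

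LGALS1, at chr22:37675608-37679806, was the given marker that the choice did not use. It ran from 1.54 to 11.99 per 10000 UMIs in high cells (median 5.57) and from 3.88 to 6.02 in the rest (median 4.60). High cells of HTO2+HTO10, HTO2+HTO6 and HTO4+HTO8 were above 11 per 10000 UMIs, while those of HTO3+HTO6 were the lowest. In each of the 3 highest, 1 cell held most counts: 70 of 84 in HTO2+HTO10, 48 of 70 in HTO2+HTO6 and 27 of 34 in HTO4+HTO8. Without that cell they stood at 2.96, 5.14 and 3.21. The log2 fold change was 0.29 (SE 0.16, adjusted p = 0.361, edgeR), so LGALS1 did not pass the test, and it did not pass in any alternative. LGALS1 was 4.17 per 10000 UMIs in cells of the rest with 0 of the choosing genes, 6.47 in cells of the rest with at least 1, 4.59 in high cells with 1 of them, 7.98 with a pair and 4.17 with all 3. LGALS1 thus did not follow the number of choosing genes detected. Of the other galectins, LGALS8 rose by 0.86 on the log2 scale (SE 0.23, adjusted p = 0.0258, edgeR), higher in 11 of 12. The LGALS8 call held in 4 of 19 alternatives. LGALS3, the most abundant at 31.1 against 28.5 per 10000 UMIs, had a log2 fold change of 0.05 (SE 0.09, adjusted p = 0.819, edgeR).

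Genes that work with NFATC2 and MBNL2 were covered by lists of NFAT and splicing factor genes. Of 25 NFAT and calcineurin genes, 16 were tested and 0 passed (median 0.01), where 3.09% of all tested genes passed. PPP3CA, the catalytic subunit of calcineurin, came nearest at 0.59 (SE 0.23, adjusted p = 0.156, edgeR), and RCAN1, a feedback inhibitor that NFAT induces, was at 0.54 (SE 0.27, adjusted p = 0.287, edgeR). Of 25 splicing factor genes, 16 were tested, 0 rose and 1 fell, SRSF2 at -0.60 (SE 0.14, adjusted p = 0.0113, edgeR). SRSF2 sat at the threshold without HTO3+HTO8 (adjusted p = 0.0501, edgeR). SOX9, which SOX9-AS1 overlaps, was counted at 0.420 per 10000 UMIs in high cells and 0.533 in the rest. Its log2 fold change was -0.57 (SE 0.30, adjusted p = 0.327, edgeR), lower in 9 of 12 hashed samples.

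The cells kept an epithelial profile. Of the keratin and junction list, 15 of 22 genes were tested, 0 rose and 1 fell (median 0.00), where 2.19% of all tested genes fell. KRT7, a simple epithelial keratin, fell by 0.75 on the log2 scale (SE 0.14, adjusted p = 0.00116, edgeR), lower in 11 of 12, while KRT8 stood at 15.2 against 14.2 per 10000 UMIs. EPCAM had a log2 fold change of 0.11 (SE 0.12, adjusted p = 0.660, edgeR). Of the mesenchymal and matrix list, 17 of 30 genes were tested, 0 rose and 1 fell, TIMP3 at -0.95 (SE 0.28, adjusted p = 0.0469, edgeR). The TIMP3 call was lost in 9 of 12 fits with 1 hashed sample left out, that without HTO3+HTO8 among them. VIM stood at 24.1 against 17.9 per 10000 UMIs, with a log2 fold change of 0.34 (SE 0.14, adjusted p = 0.178, edgeR).

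Markers of other cell types were counted in the high cells, for the lists given here. Of T or NK cell markers, 2 of 11 had any count, CD3D, CD3E, CD8A, NKG7 and TRAC being at 0. Of erythroid markers 0 of 5 had a count. Of fibroblast markers 5 of 10 had a count, of which FAP was the highest at 5 counts, and COL1A1 had 1 count. Of endothelial markers 4 of 7 and of mesothelial markers 3 of 5 had a count. EGFL7 stood at 0.598 against 0.495 per 10000 UMIs in the rest, and CDH5 and KDR were at 0. Of myeloid markers 7 of 10 had a count, led by CD68 at 0.366 against 0.322, with CSF1R and AIF1 at 0. The part of such cells in the results was not tested beyond these counts.

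Whether the response to cytokine was kept was read from the level of the 2 response lists in each hashed sample. The IFN-gamma response list (34 genes found, among them CXCL10, IRF1, IDO1 and GBP1) ran from 7.70 to 183 counts per 10000 UMIs in high cells (median 14.98) and from 8.78 to 334 in the rest (median 19.6). The range over hashed samples was thus wide in both groups. In HTO2+HTO7 high cells stood at 183 and the rest at 327, in HTO4+HTO6 at 183 and 296, and in HTO3+HTO6 at 146 and 334. Summed, high cells of these hashed samples were far above high cells of the others and below the rest of their own sample. The 3 highest cells held 979 of 1241 list counts among 10 high cells in HTO2+HTO7 and 987 of 1160 among 5 in HTO4+HTO6. In HTO3+HTO6 they held 763 of 1327 among 14. Without the highest cell the 3 samples stood at 140, 176 and 113. CXCL10 was counted in 9 of 10, 5 of 5 and 14 of 14 of their high cells. The ratio of high cells to the rest was below 1 in 9 of 12 hashed samples, with a median of 0.83 and a range of 0.44 to 3.91. Exact 95% intervals of the ratio (binomial, conditional on the summed counts), which cover counting error only, lay below 1 in 6 and above 1 in 2.

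The ratio of 3.91 belonged to HTO2+HTO5, with 40.4 against 10.3 per 10000 UMIs. There, 528 of 724 list counts came from 1 cell, and without it the high cells stood at 12.6. The same cell held 108 of the 112 CXCL10 counts of that sample's high cells.

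The TNF and NF-kB response list (44 genes) ran from 28.1 to 109 per 10000 UMIs in high cells (median 61.7) and from 22.8 to 159 in the rest (median 119). The ratio had a median of 0.73, was below 1 in 8 of 12 hashed samples and ran from 0.42 in HTO2+HTO7 to 1.51 in HTO3+HTO7. In HTO3+HTO7 1 cell held 175 of 280 list counts, and without it the high cells stood at 30.2 beside 32.4 in the rest. Counting intervals lay below 1 in 7 hashed samples and above 1 in 3.

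**Figure D4:**
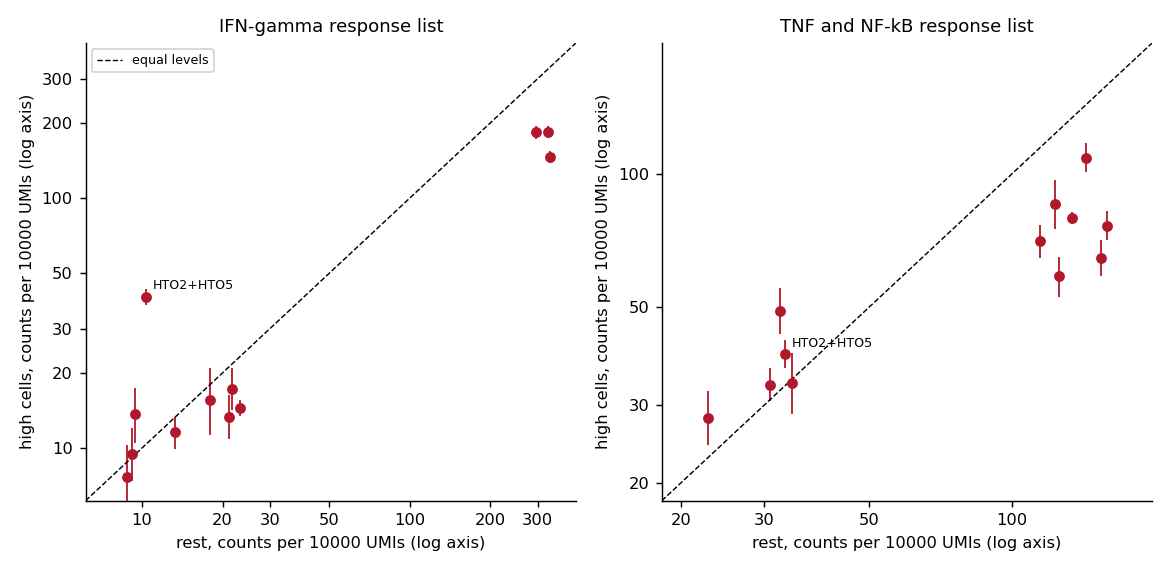
Summed counts per 10000 UMIs of the IFN-gamma list (left) and the TNF and NF-kB list (right) in high cells against the rest of the same hashed sample, on log axes, with exact Poisson 95% intervals for high cells. The dashed line marks equal levels; 9 of 12 and 8 of 12 hashed samples lie under it, and HTO2+HTO5 lies over it on the left.

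Gene by gene, 30 of 44 TNF and NF-kB genes were tested, of which 0 rose and 6 fell, where 2.19% of all tested genes fell. The list had a median of -0.43 beside -0.06 for all tested genes. Besides PLAUR, the genes of the list that fell were LTB, VCAM1, IER3, LCN2 and CXCL8. LTB, a lymphotoxin subunit, fell by 1.68 on the log2 scale (SE 0.35, adjusted p = 0.00411, edgeR), lower in 7 of 12. VCAM1, a leukocyte adhesion molecule, fell by 1.40 (SE 0.30, adjusted p = 0.00543, edgeR), lower in 10 of 12. Both calls were lost without HTO3+HTO8 (adjusted p = 0.117 and 0.130, edgeR). IER3, an NF-kB-induced survival gene, fell by 0.68 (SE 0.14, adjusted p = 0.00262, edgeR), and LCN2, an iron-binding antimicrobial protein, by 0.67 (SE 0.15, adjusted p = 0.00676, edgeR), each lower in 10 of 12. CXCL8, a neutrophil-attracting chemokine, fell by 0.59 (SE 0.17, adjusted p = 0.0445, edgeR) and held in 3 of 19 alternatives. Its call was lost without any 1 of 7 hashed samples, HTO3+HTO8 among them (adjusted p = 0.117, edgeR). The LCN2 call held in 9 of 19 alternatives and the IER3 call in 12 of 19. LCN2, CXCL8, NFKBIA, CXCL10, IRF1 and EPCAM are given after their values were seen. NFKBIA, the feedback inhibitor of NF-kB, had a log2 fold change of -0.12 (SE 0.20, adjusted p = 0.823, edgeR).

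Of the IFN-gamma list 17 genes were tested, 0 rose and 1 fell (median -0.31), where 2.19% of all tested genes fell. GBP3, a guanylate-binding protein, ran from 0.0625 to 3.95 per 10000 UMIs in high cells (median 0.522) and from 0.256 to 8.36 in the rest (median 1.34). It was lower in 10 of 12 hashed samples at -0.87 (SE 0.22, adjusted p = 0.0222, edgeR). The GBP3 call was lost without HTO3+HTO8, HTO2+HTO7 or HTO3+HTO6 (adjusted p = 0.125, 0.0883 and 0.0685, edgeR). CXCL10, a T cell attractant, was at -0.67 (SE 0.38, adjusted p = 0.366, edgeR), lower in 9 of 12 hashed samples. CXCL10 was called in 7 of 19 alternatives. At 5000 UMIs it was at -0.84 (adjusted p = 0.00421, edgeR). At the mitochondrial limit of 15% it was at 0.40 (adjusted p = 0.839, edgeR). Among cells of 5000 to 12000 UMIs it was at -1.31 (adjusted p = 0.000197, edgeR). IRF1, the transcription factor that drives many IFN-gamma targets, was at 0.14 (SE 0.19, adjusted p = 0.774, edgeR). IRF1 was lower in 6 of 12 hashed samples. In that range IRF1 was at -0.62 (adjusted p = 0.0383, edgeR), and at 5000 UMIs at -0.10 (adjusted p = 0.780, edgeR). The 10 tested genes of the MHC class I list and the 20 of the type I interferon list gave 0 calls, with medians of 0.06 and -0.24. TNFSF10, the death ligand TRAIL, fell by 1.07 (SE 0.24, adjusted p = 0.00739, edgeR), the only call among 14 tested genes of cell death and p53. The TNFSF10 call held in 11 of 19 alternatives.

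Depth and mitochondrial share moved with these gene differences, and their part in them was not tested beyond the settings given. The fit on cells of 5000 to 12000 UMIs held 69 of the same high cells, in 6 hashed samples. Its signs are therefore not independent of the main fit, and high cells in this range were still shallower than the rest. In it, 15 of the 45 higher genes still tested and 69 of 120 lower genes were called again, all with the same sign. With cells chosen anew at 5000 UMIs, 4 of 48 higher and 15 of 133 lower genes were called again. There the sign was the same for 46 higher and 132 lower genes. With the mitochondrial limit at 15%, 7 of 54 higher and 17 of 133 lower genes were called again, all with the same sign.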

How the data were processed

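The authors deposited 1 matrix of UMI counts (36601 genes and 10 hashtags). It was made with Cell Ranger 5.0.1 per the file headers, while the submitters' processing notes list Cell Ranger 2.1.1 and GRCh38, and the difference was not resolved. Strand use and introns in counting are not given in the sources used here. The high cells and gene lists were chosen with earlier results of these data known.

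Kept cells had at least 1000 genes and at most 20% MT- counts. A cell was placed by its 2 highest hashtags when the lower of them reached 10 counts and 3 times the level of the next tag, and pairs of under 30 cells were not used. No doublet caller was run, and cells with no clear pair were left out of the sums per hashed sample. Deposited counts were summed by hashed sample for high cells and the rest and tested with edgeR 4.0.16 (R 4.3.3, quasi-likelihood, TMM, low-count filter), with the hashed sample as a block because both classes come from the same hashed sample, and Benjamini-Hochberg adjustment. The 3 choosing genes were left out. Numbers of counts in high cells, where no subset is named, cover all 177, including those outside the fit. Named genes were LGALS1, MALAT1, NEAT1, the 15 largest rises and falls by log2 fold change among called genes with at least 0.2 counts per 10000 UMIs in the higher class, and up to 4 genes per list with the smallest adjusted p. Mitochondrial, ribosomal and hashtag measures used exact sign-flip permutation tests (scipy 1.17.1), adjusted over 3 measures. The edgeR step was tested on simulated data, where 4-fold changes were called in 49 of 49 genes and 2-fold changes in 38 of 50. Changes of 1.5-fold were called in 18 of 49 genes, of 0.5-fold in 25 of 43, and unchanged genes in 8 of 6014. Simulated sums had 1 spread for all genes and no effect of hashed sample. Real sums in which 1 cell holds most counts are not covered by it. Intervals and zero counts cover counting error only. Promoters came from RefSeq (GRCh38.p14) and gene positions from GENCODE 29. Alternatives covered the choice of cells, depth, mitochondrial limit, hashtag limits, normalization, DESeq2 1.42.0, the low-count filter, the block and each hashed sample left out. One marker list is not reported here.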

Additional observations from a re-analysis of the deposited data

Results flagged for a closer look

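Of the 1731 barcodes removed by the limits on genes and mitochondrial share, 230 (13.3%, exact binomial 95% interval 11.7% to 14.98%) had a score at or above that of the lowest high cell. All removed barcodes together had a median of 4507 UMIs. By construction the share among kept cells was 5.00%. High cells with no clear pair of hashtags, which no comparison used, held RRAD at 1.34 per 10000 UMIs, 24 of its 26 counts coming from 1 cell (0.114 without it), and AC116366.1 at 0.670 per 10000 UMIs. Among all 177 high cells these stood at 0.720 and 0.262, and in the rest at 0.0719 and 0.0169.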

How the results depend on the processing

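Against 188 called genes (55 higher, 133 lower), the count was 303 (31 and 272) for the highest 2%, 389 (171 and 218) for the highest 10%, 89 (22 and 67) with at least 3 counts of the choosing genes, 27 (7 and 20) at 5000 UMIs, 31 (12 and 19) with at most 15% MT- counts, 91 (39 and 52) with at least 2000 genes and 833 (163 and 670) with no low-count filter. It was 125 (44 and 81) by MBNL2 and NFATC2, 368 (104 and 264) by SOX9-AS1 and MBNL2, 135 (74 and 61) by SOX9-AS1 and NFATC2, and 58 (19 and 39) with at least 2 choosing genes detected, a setting added after seeing the data. The fits differed in size, with 151 chosen cells in 12 hashed samples for the main choice. There were 51 in 5 for the highest 2%, 299 in 13 for the highest 10% and 55 in 5 with at least 3 counts. There were 132 in 10 at 5000 UMIs, 86 in 8 with at most 15% MT- counts and 130 in 11 with at least 2000 genes. With at least 2 choosing genes there were 59 in 4. DESeq2 called 87 higher and 114 lower. Leaving out 1 hashed sample gave 70 to 228 (23 to 72 higher, 47 to 174 lower), with 70 without HTO3+HTO8 and 123 without HTO2+HTO7. With no replicate block, so without pairing high cells and rest by hashed sample, 163 were called (60 and 103) and MALAT1 was 0.28 and no longer passed.

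MALAT1 also lost its call at 0.17 (highest 2%), 0.094 (highest 10%), 0.16 (3 counts), 0.19 (5000 UMIs), 0.22 (highest 5% within each hashed sample), 0.0040 (15% MT-), 0.20 (2000 genes), 0.24 (hashtag ratio of 10), 0.037 (1 high cell per hashed sample), 0.0016 (no filter) and 0.12 (MBNL2 and NFATC2), and ran from 0.18 to 0.31 with 1 hashed sample left out. NEAT1 was -0.36 and passed with no filter. The mitochondrial difference was 0.0269 points at the 15% limit. HSPA1B was -0.44 and IGFBP5 -0.27 with at least 2 choosing genes, IGFBP5 -0.31 with at least 3 counts, and HMOX1 -0.28 at 5000 UMIs. The cause of these changes was not tested. For single named genes, 923 values kept direction and call, 376 kept direction only and 4 changed sign. Fits with 1 hashed sample left out, which share most cells with the main fit, gave 437 of 519 values that kept both. With RLE normalization 44 of 44 kept both. With at most 15% MT- counts 9 of 43 did, at 5000 UMIs 7 of 38, and with at least 2 choosing genes 14 of 44. Low counts limit the choice itself: 33 of 177 high cells rest on 1 count.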

Other observations

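Some genes with high ratios missed the low-count filter and are given as values, chosen after they were seen. RRAD, a small GTPase, had 118 counts in high cells, 50 of them in 1 cell. ACSL6, an acyl-CoA synthetase, stood at 0.281 against 0.0195 per 10000 UMIs, from 46 counts in 22 high cells. AC116366.1 stood at 0.262 against 0.0169, from 43 counts in 19 high cells. Over the 12 hashed samples compared, AC116366.1 had a median of 0 in high cells, with a ratio to the rest above 1 in 4 and below 1 in 5. The ACSL6 ratio was above 1 in 6 and below 1 in 2. Both were highest in high cells of HTO3+HTO6, at 1.87 for AC116366.1 and 1.98 for ACSL6. ACSL6, AC116366.1 and IRF1 lie on chromosome 5, AC116366.1 ending 8566 bases and ACSL6 469366 bases from IRF1.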
